A study of Cricetulus griseus with 19 samples.

Results

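Srebf2, Mbtps2 and Acaca are 3 genes of the control of sterol and fatty acid synthesis, and each was measured as 1 RefSeq transcript target in 19 RNA-seq libraries of the Paradaux cell line. They were chosen by symbol among 524 gene symbols that could be matched to the 46718 targets of each file (Srebf2 NM_001244004.1, Mbtps2 NM_001244089.1 and Acaca NM_001292056.1). Paradaux is a derivative of CHO-K1, an adherent line from Chinese hamster ovary, that carries a synthetic circuit in which the cells' own signal, the plant hormone auxin, controls their number. The labels name 4 kinds of library, namely the parental line (1 library), long-term uncontrolled growth (4 libraries), long-term negative feedback (7 libraries), in which the signal limits the population, and long-term paradoxical feedback (7 libraries), in which one signal feeds into growth and also into death. All of them share the CHO-K1 background and 1 inserted construct, whose RNA was present in every library at 1226 to 2221 CPM. CPM is the estimated read count scaled to a common library size after normalization between libraries. Per the labels' protocols, cells grew for 2 days below 80% confluence before polyadenylated RNA was taken. The labels do not say whether the line is a single clone or whether the numbered cultures were kept apart throughout, so p-values measure the spread between these libraries, which may in part be technical.

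Cells make cholesterol and fatty acids under the control of SREBP transcription factors, which are built into the membrane of the endoplasmic reticulum as inactive precursors. When sterols are low, the escort protein Scap carries the precursor to the Golgi. There the site-1 protease (gene Mbtps1) and then the site-2 protease (gene Mbtps2) cut it, and the freed part enters the nucleus. When sterols are high, the Insig proteins hold Scap and its cargo in the endoplasmic reticulum. Srebf2 encodes SREBP-2, which acts mainly on sterol synthesis and uptake, and Acaca encodes acetyl-CoA carboxylase, which makes malonyl-CoA in the committed step of fatty acid synthesis. Much of this pathway was worked out in CHO cells, in which mutants lacking Scap or the site-2 protease depend on added lipids.

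Each library held between 9.91 and 13.2 M estimated counts. Negative feedback cultures 3 to 7 stood apart from the other 14 libraries on the first principal component of all tested targets (33.2% of the variance), at 158 to 221 against -169 to 38.0. The share of counts on short targets, those under 800 nt, was 6.12 to 7.22% in these 5 libraries and 8.50 to 14.1% elsewhere. Of 8 marker genes set for the identity of the cells, 2 had a matched target. The alpha-tubulin target Tuba1b was at 634 to 2818 CPM, and the Actb target was at 0 to 1.27 CPM although beta-actin is an abundant protein of such cells. A target with a symbol can therefore hold a small part of its gene's reads. The remaining markers, among them those of blood cells, epithelium, endothelium and liver, were not analysed here because no target matched.

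The transcript of Srebf2 was higher under negative feedback than under uncontrolled growth, and this lay in 5 of 7 cultures. It stood at 77.3, 76.2, 95.0 and 90.6 CPM in uncontrolled cultures 1 to 4. Negative feedback cultures 1 and 2 had 82.5 and 71.2 CPM, whereas cultures 3 to 7 had 169, 257, 230, 262 and 240 CPM. Cultures 1 and 2 thus overlapped the uncontrolled group, and cultures 3 to 7 lay above all 4 uncontrolled cultures. The means were 187 ± 81.5 CPM (SD, n = 7) and 84.8 ± 9.46 CPM (SD, n = 4). The log2 fold change was 1.14 ± 0.31 (SE; 95% interval 0.48 to 1.81; edgeR quasi-likelihood test, adjusted p = 0.0326 over 28555 targets). In bulk RNA a change in the share of cells that express a gene and a change in the RNA per cell cannot be told apart. The estimated counts of the Srebf2 target were whole in every library, 732 to 3332, so no division of its reads with a similar target was seen. A whole count does not prove that each read was unique to the target.

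Acaca, which also had whole counts throughout, was likewise higher in 5 of 7 negative feedback cultures. Uncontrolled cultures 1 to 4 had 43.0, 24.9, 27.9 and 30.1 CPM. Negative feedback cultures 1 and 2 had 26.9 and 35.3 CPM, whereas cultures 3 to 7 had 133, 173, 151, 176 and 102 CPM. The lowest of cultures 3 to 7, culture 7, was above each of the 14 other libraries. The highest of those was paradoxical feedback culture 3 at 57.2 CPM. Such a separation of cultures 3 to 7 was seen in 8.35% of all tested targets. The means were 114 ± 61.9 CPM (SD, n = 7) under negative feedback and 31.5 ± 7.96 CPM (SD, n = 4) in uncontrolled cultures. The log2 fold change was 1.85 ± 0.45 (SE; 95% interval 0.90 to 2.81; edgeR adjusted p = 0.0246). Its target of 7041 nt held 263 to 2248 counts per library.

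The Mbtps2 target was near the detection limit in every library except negative feedback cultures 3 to 7. It held 0 to 5.43 estimated counts in uncontrolled cultures (0.131, 0, 0 and 0.459 CPM in cultures 1 to 4) and 1.40 and 3.59 counts in negative feedback cultures 1 and 2. In cultures 3 to 7 it held 61.5, 119, 121, 52.0 and 31.1 counts, or 5.21, 9.19, 9.87, 4.82 and 2.44 CPM. Cultures 3 to 7 were thus above all other libraries, whose highest value was 0.898 CPM in paradoxical feedback culture 4. The same held for 8.35% of all tested targets. Summed over cultures, 389 counts under negative feedback against 7 in uncontrolled cultures gave a ratio of 32.0 in CPM (exact 95% interval 15.4 to 80.1, counting error only). The fitted log2 fold change was 4.86 ± 1.34 (SE; edgeR adjusted p = 0.0329). Its count was not whole in any library where it was above 0, so some of its reads were divided with other targets, which were not identified. The full level of Mbtps2 is not known from it, since no target but this one of 1732 nt could be matched.

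**Figure D1:**
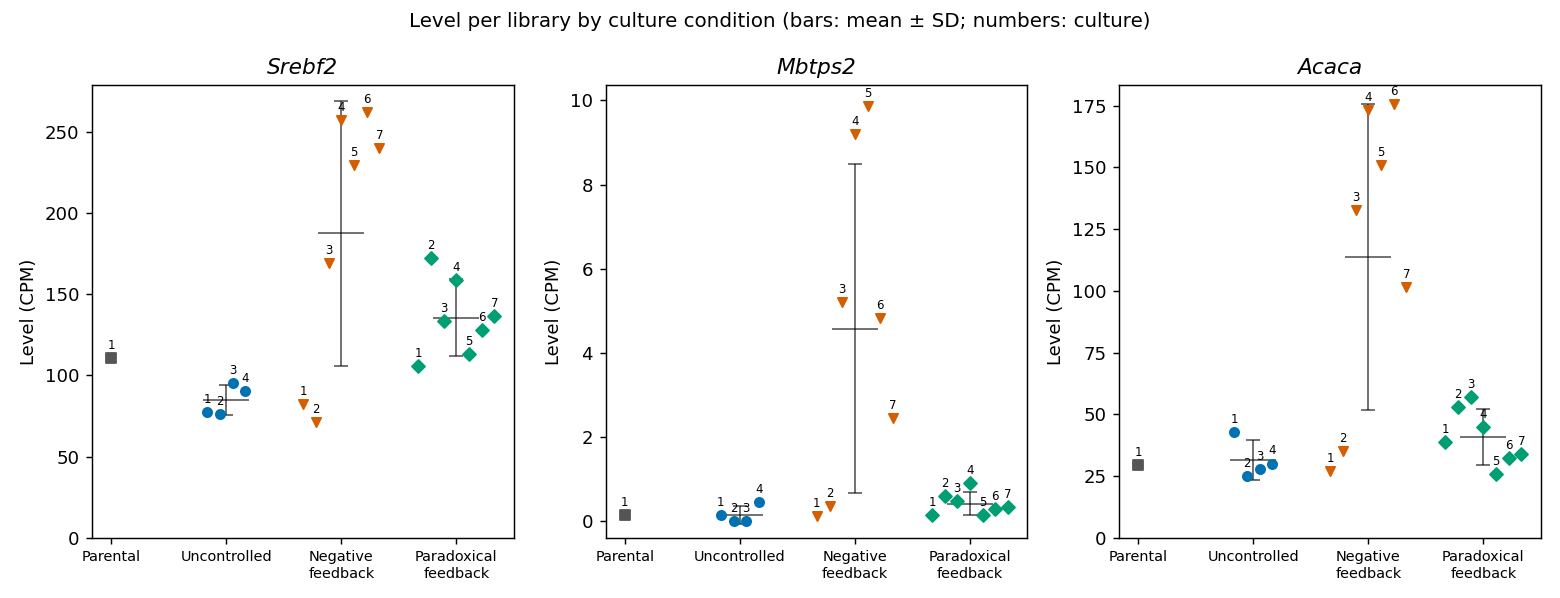
Level in CPM (vertical axis, linear) of Srebf2, Mbtps2 and Acaca in each of 19 libraries by culture condition, with the culture number at each point and horizontal and vertical bars for the mean ± SD. Negative feedback cultures 3 to 7 lie above all 4 uncontrolled cultures for each gene, while negative feedback cultures 1 and 2 lie near them.

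All 3 members were called higher under negative feedback, against 8.64% of all 28555 tested targets called higher and 1.11% called lower. For none of the 3 did the groups separate, which 1.72% of targets did upward and 2.23% downward. The background was 8.66% among 7634 tested targets of 4000 nt or more and 28.2% among 284 tested protein-coding targets with a symbol. The median log2 fold change was 0.04 over all targets, 0.41 over the long ones and 0.44 over those with a symbol. The 3 calls rested on cultures 3 to 7. Without these 5 cultures the log2 fold changes were -0.14 for Srebf2, 0.67 for Mbtps2 and -0.01 for Acaca, with adjusted p = 1.00 for each by edgeR, since the remaining cultures 1 and 2 lay near the uncontrolled group. The calls were also lost without any 1 of uncontrolled cultures 1 to 4 (adjusted p 0.0525 to 0.0948 by edgeR). Those of Srebf2 were lost without any 1 of negative feedback cultures 3 to 7, and that of Mbtps2 without culture 3, 4, 5 or 6 (0.0532 to 0.0645). In a fit of the compared groups alone the adjusted p-values were 0.0869, 0.0814 and 0.0798 for Srebf2, Mbtps2 and Acaca by edgeR. With the share of counts on targets under 800 nt as a covariate, the log2 fold changes were 0.13, 1.16 and 0.25. That share moved with the members, and its part in the result was not tested further.

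**Figure D2:**
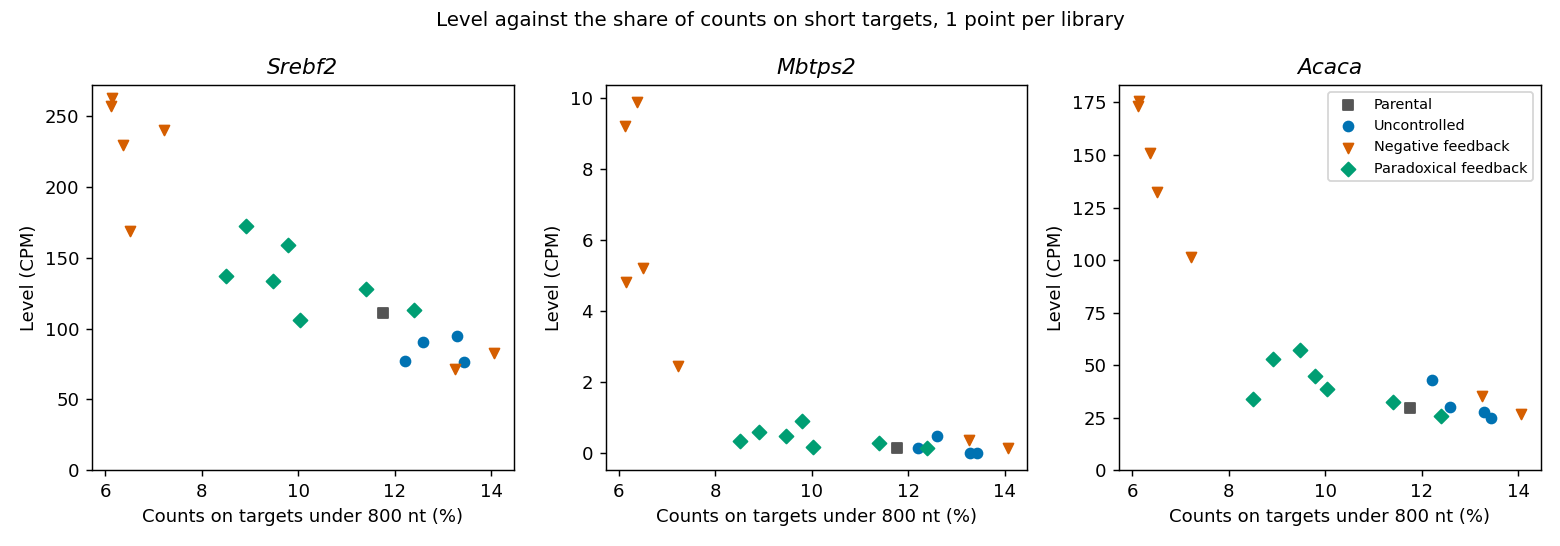
Level in CPM (vertical axis, linear) of Srebf2, Mbtps2 and Acaca against the percentage of counts on targets under 800 nt (horizontal axis), with 1 point per library and colour and shape for the culture condition. The 5 negative feedback libraries with 6.12 to 7.22% on short targets are those with the 5 highest levels of Mbtps2 and Acaca. Of these libraries, 4 have the 4 highest levels of Srebf2. The same 5 libraries were the highest for 8.35% of all tested targets.

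Under paradoxical feedback only Srebf2 among the 3 had CPM levels clear of the uncontrolled group. Its levels were 106, 172, 134, 159, 113, 128 and 137 CPM in cultures 1 to 7, with a mean of 136 ± 23.7 CPM (SD, n = 7). Each of the 7 lay above the highest uncontrolled culture at 95.0 CPM. Of all tested targets, 8.15% had paradoxical feedback cultures wholly above uncontrolled ones and 8.36% wholly below, so such a separation was not rare. The log2 fold change of Srebf2 was 0.68 ± 0.31 (SE; 95% interval 0.03 to 1.32) and was not called in the fit over all libraries (edgeR adjusted p = 0.175). It was called in the fit of the compared groups alone (0.67, edgeR adjusted p = 0.00875) and without negative feedback cultures 3 to 7 (0.69, adjusted p = 0.00571). These fits called more targets higher in general, 13% and 10.4% of those tested. An exact two-sided permutation test of log2 CPM gave p = 0.00303, the smallest that 330 splits allow, unadjusted and 1 of 9 such tests on the members. On the deposited TPM values, which scale counts by target length, the same exact permutation test gave p = 0.0152, and the groups overlapped, since paradoxical feedback culture 5 was at 21.4 TPM and uncontrolled culture 4 at 21.5 TPM. With the short-target share as a covariate the log2 fold change was 0.11 (edgeR adjusted p = 0.817).

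Acaca and Mbtps2 overlapped the uncontrolled cultures under paradoxical feedback. Acaca was at 38.7, 53.1, 57.2, 44.9, 25.8, 32.4 and 33.9 CPM in cultures 1 to 7, a mean of 40.9 ± 11.4 CPM (SD, n = 7). Cultures 2, 3 and 4 were above the highest uncontrolled culture, and culture 5 lay among the lowest libraries. The log2 fold change was 0.38 ± 0.42 (SE; 95% interval -0.52 to 1.27; edgeR adjusted p = 0.627), so the interval spans changes in both directions. Mbtps2 held 1.41 to 11.6 counts per library, or 0.138 to 0.898 CPM. The log2 fold change was 1.39 ± 1.13 (SE; 95% interval -0.98 to 3.77; edgeR adjusted p = 0.467). The summed counts of 34 and 7 gave a ratio of 2.81 in CPM, with an exact 95% interval of 1.22 to 7.50 for counting error only. None of the 3 members was thus called, against 4.93% of all targets called higher and 1.5% called lower.

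Between the feedback conditions no member was called, against 0.165% of targets called higher and 0.105% called lower under paradoxical feedback. Acaca had a log2 fold change of -1.48 ± 0.36 (SE; 95% interval -2.24 to -0.71; edgeR adjusted p = 0.0772), Mbtps2 of -3.46 ± 0.97 (-5.51 to -1.42; adjusted p = 0.0986) and Srebf2 of -0.47 ± 0.26 (95% interval -1.01 to 0.07; adjusted p = 0.374). By DESeq2, which called 4.55% of all targets lower, Acaca and Mbtps2 were called lower with adjusted p = 0.00184 and 0.00188. They were also called by edgeR without negative feedback culture 1 (adjusted p = 0.0166 and 0.0334) or culture 2 (0.0235 and 0.0462). The direction turned without negative feedback cultures 3 to 7, to 0.40 for Acaca, 0.74 for Mbtps2 and 0.83 for Srebf2. In that fit, which sets 7 paradoxical feedback cultures against negative feedback cultures 1 and 2, Srebf2 was called higher (edgeR adjusted p = 0.0185), beside 5.23% of all targets tested.

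The parental library lay at 111 CPM for Srebf2, 29.5 CPM for Acaca and 0.132 CPM for Mbtps2. By group mean, the order for Srebf2 was negative feedback, paradoxical feedback, parental and uncontrolled, and for Acaca it was negative feedback, paradoxical feedback, uncontrolled and parental. Parental Acaca was within the range of the uncontrolled group, and parental Srebf2 was above it and within that of paradoxical feedback. For Mbtps2 the order of group means was negative feedback, paradoxical feedback, uncontrolled and parental. The parental library held 1.58 counts of Mbtps2 and the uncontrolled cultures 0 to 5.43, so the order of uncontrolled and parental is not resolved. The neighbours negative and paradoxical feedback were not called different for any member after adjustment over all targets, and the parental library has no spread of its own. The mean of the long-term groups differed from the parental library by 0.22 ± 0.50, 0.84 ± 0.74 and 1.91 ± 2.10 on the log2 scale for Srebf2, Acaca and Mbtps2 (SE; adjusted p = 1.00 for each by edgeR). This test assumes that the single parental library varies like the cultures, and it called 0.0175% of targets as higher.

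Per length, the Srebf2 target was above the Acaca target, and the Acaca target above the Mbtps2 target, in each of the 19 libraries. A target can hold a small part of its gene's reads, so this order does not rank the genes. In deposited TPM, Srebf2 was at 16.4 to 21.5 in uncontrolled cultures, 50.3 to 80.4 in negative feedback cultures 3 to 7 and 21.4 to 43.2 under paradoxical feedback. Acaca was at 3.72 to 6.97 TPM, 19.8 to 37.5 TPM and 3.40 to 9.26 TPM in the same groups. The ratio of Srebf2 to Acaca TPM was 1.83 to 3.40 in negative feedback cultures 3 to 7 and 2.59 to 6.29 in the other 14 libraries. These 5 cultures thus held more Acaca relative to Srebf2 than most others, with an overlap in range. Within them, culture 3 had the lowest Srebf2 and culture 7 the lowest Acaca and Mbtps2, so the members did not keep 1 order among these cultures.

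Of 104 genes listed for sterol and fatty acid metabolism, 13 had a matched target, each with 1 target. Besides the 3 members, 10 were tested. Under negative feedback 3 of the 10 were called higher, none lower, and 7 were not called, beside 8.64% of all targets and 28.2% of protein-coding targets with a symbol called higher. The count is thus near the share among targets with a symbol. Under paradoxical feedback 1 was called higher, beside 4.93% of all targets. Between the feedback conditions 0 of 10 were called by edgeR, beside 0.165% of all targets higher and 0.105% lower. In that comparison DESeq2 called 3 of the 10 lower, beside 4.55% of all targets. The share that DESeq2 called among targets with a symbol was not counted. The median log2 fold change of the 10 was 0.49, 0.19 and -0.33 in these 3 comparisons, beside 0.04, 0.02 and -0.06 over all targets. It was 0.44, 0.55 and -0.007 over protein-coding targets with a symbol, and 0.41, 0.04 and -0.35 over targets of 4000 nt or more. Both comparisons with uncontrolled growth use the same 4 cultures.

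**Figure D3:**
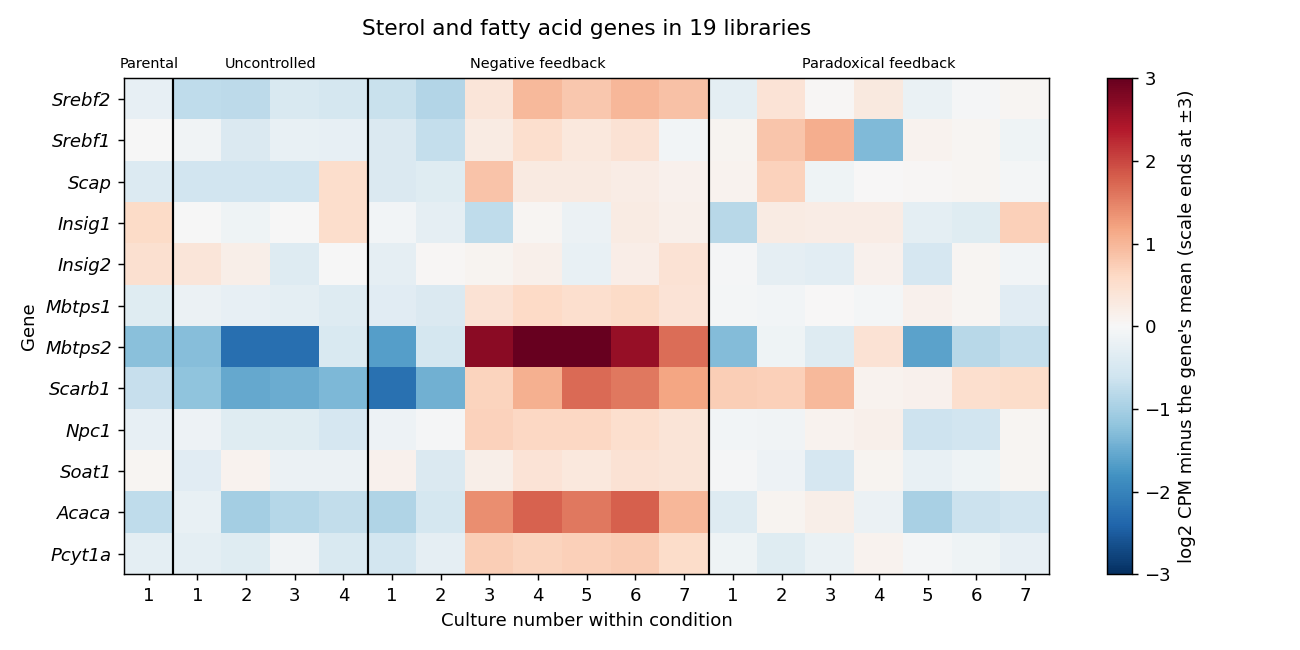
Log2 CPM minus each gene's mean over 19 libraries (colour, scale ends at ±3) for the 3 members and 9 matched genes of sterol and fatty acid metabolism, with libraries in columns by condition and culture number. Mbtps2, Acaca, Npc1, Mbtps1, Soat1 and Pcyt1a are highest in negative feedback cultures 3 to 7, as are 8.35% of all tested targets. Insig1 and Insig2 show no such block.

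Among the genes that sense sterols and move the precursor, no call was made. Scap was at 40.5 to 88.6 CPM in uncontrolled cultures, 45.4 to 110 CPM under negative and 56.4 to 99.8 CPM under paradoxical feedback, with log2 fold changes against uncontrolled growth of 0.41 ± 0.26 and 0.34 ± 0.26 (SE). Insig1, which is also a well-known target of SREBP, was at 46.6 to 73.2 CPM, 30.2 to 60.5 CPM and 28.7 to 83.3 CPM in these groups. Its log2 fold changes were -0.20 (95% interval -0.72 to 0.32) and -0.05 (-0.58 to 0.47). Insig2, with shared reads, had 0.02 (-0.38 to 0.41) and -0.19 (-0.58 to 0.20). The range of Insig1 in negative feedback cultures 3 to 7, 30.2 to 60.5 CPM, lay within the range of the other libraries.

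Of the transcription factors and proteases, Srebf1 and Mbtps1 were not called. Srebf1, whose products act mainly on fatty acid synthesis, was at 2.86 to 15.9 CPM over all libraries. Its 1 target was below the lowest level of the Srebf2 target also in TPM, which does not rank the genes. The log2 fold changes of Srebf1 were 0.35 ± 0.38 under negative and 0.51 ± 0.39 under paradoxical feedback (SE). Mbtps1, the site-1 protease, had whole counts and was at 94.6 to 110 CPM in uncontrolled cultures. Negative feedback cultures 1 and 2 had 97.9 and 92.6 CPM, and cultures 3 to 7 had 164 to 189 CPM, above all 14 other libraries. Its log2 fold change of 0.58 ± 0.18 (SE) narrowly missed the threshold (edgeR adjusted p = 0.0523) and was called by DESeq2 (adjusted p = 0.0111), beside 17% of all targets called higher by that tool. Of all tested targets, 8.35% had cultures 3 to 7 above all others.

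Genes of lipoprotein uptake and of cholesterol movement held 2 of the 3 other calls. Scarb1, a receptor for high-density lipoprotein with shared reads, rose under both conditions. It was at 3.87 to 4.94 CPM in uncontrolled cultures, 2.34 and 4.14 CPM in negative feedback cultures 1 and 2, 18.7 to 37.8 CPM in cultures 3 to 7 and 12.5 to 22.9 CPM under paradoxical feedback. All 7 paradoxical feedback cultures were above the uncontrolled ones, as for 8.15% of all targets. The log2 fold changes of Scarb1 were 2.29 ± 0.59 under negative and 1.99 ± 0.58 under paradoxical feedback (SE; edgeR adjusted p = 0.0266 and 0.0489). Npc1, which exports cholesterol from lysosomes, rose by 0.75 ± 0.20 under negative feedback (edgeR adjusted p = 0.0322). Its negative feedback cultures, at 27.0 to 48.3 CPM, were all above the uncontrolled ones at 21.2 to 26.7 CPM, as for 1.72% of all targets. In deposited TPM these groups overlapped for Npc1, with negative feedback culture 1 at 6.77 and uncontrolled culture 1 at 7.70. Soat1, which esterifies cholesterol, had a log2 fold change of 0.37 ± 0.15 (SE; adjusted p = 0.116).

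Pcyt1a, the rate-setting enzyme of phosphatidylcholine synthesis, rose by 0.75 ± 0.23 under negative feedback (edgeR adjusted p = 0.0482). It was at 50.0 to 57.9 CPM in cultures 3 to 7 and at 23.2 to 36.7 CPM in the other 14 libraries, a separation seen in 8.35% of all tested targets. Lpin1, a phosphatidate phosphatase, was listed at 0 in 16 libraries and held 8.47, 13.2 and 5.75 estimated counts in negative feedback cultures 3, 4 and 6, so no fold is given. Without negative feedback cultures 3 to 7 the log2 fold changes against uncontrolled growth were -0.41 for Scarb1, 0.25 for Npc1 and -0.10 for Pcyt1a. None of the 3 was called then, and none without any 1 uncontrolled culture. The call of Pcyt1a held in 3 of 19 fits that left out 1 library, those without the parental library or negative feedback culture 1 or 2, and in 1 of 8 other alternatives. Under negative feedback the call of Npc1 held in 10 of 19 and 3 of 8, and that of Scarb1 in 12 of 19 and 3 of 8. That of Npc1 was lost without any 1 of negative feedback cultures 3 to 7, and that of Scarb1 without culture 4, 5 or 6. With the short-target share as a covariate the log2 fold changes were 0.12 for Scarb1, 0.26 for Npc1 and 0.14 for Pcyt1a, and none was called by edgeR. The paradoxical feedback call of Scarb1 remained without those 5 cultures (2.00, edgeR adjusted p = 0.000484). It held in 4 of 19 fits that left out 1 library, those without the parental library, negative feedback culture 1 or 2, or paradoxical feedback culture 4 (adjusted p up to 0.128 in the others).

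**Figure D4:**
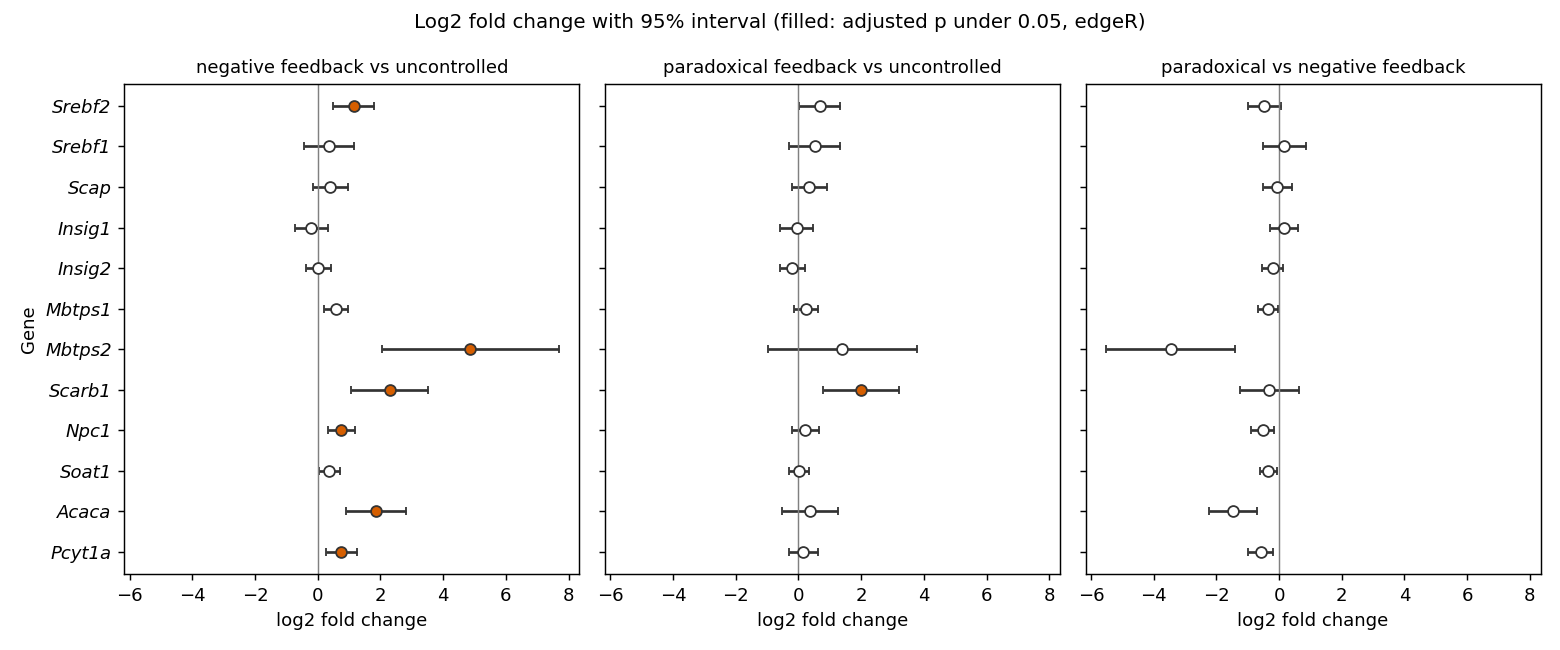
Log2 fold change (horizontal axis) with its 95% interval from edgeR for 12 genes in 3 comparisons, with filled points for an adjusted p under 0.05. Srebf2, Mbtps2, Acaca, Scarb1, Npc1 and Pcyt1a are filled under negative feedback, Scarb1 alone under paradoxical feedback, and none between the feedback conditions.

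The named genes whose pattern was most like each member were found by the root-mean-square difference of log2 CPM over 19 libraries after removal of each gene's mean, among 240 protein-coding targets with a symbol and a mean log2 CPM of at least 1. For Srebf2 they were Cep135, a centriole protein (0.23), Selenoi, an enzyme of phosphatidylethanolamine synthesis with shared reads (0.27), and Sec22b, a SNARE protein of transport between endoplasmic reticulum and Golgi (0.29), beside a median of 0.70 over all candidates. For Acaca they were Gna13, a G protein alpha subunit (0.38), Manea, a Golgi mannosidase (0.39), and Adam17, a surface protease (0.42), beside a median of 1.01. For Mbtps2 they were Edem1, which directs misfolded glycoproteins to degradation (0.52), the phosphate exporter Xpr1 (0.61) and the Golgi protein Glg1 (0.74), beside a median of 1.81. Each of the 9 was higher in negative feedback cultures 3 to 7 than in cultures 1 and 2. The members have this pattern and the 9 were selected for likeness to them, so it is no separate result. Adam17, for example, was at 65.7 to 82.4 CPM in cultures 3 to 7 and 16.6 to 18.2 CPM in cultures 1 and 2, against 15.9 to 20.9 CPM in uncontrolled cultures. Sec22b was at 33.9 to 38.9 CPM and 15.4 to 16.1 CPM in the same sets of negative feedback cultures.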

How the data were processed

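RNA was measured in 19 libraries of 4 culture conditions. Trim Galore and kallisto are listed, with no version, in the submitters' processing notes. The genome build is not given in the sources used here. Each deposited file gives for every transcript target an estimated count (reads assigned to it) and a TPM value, which scales that count by effective length, per the file headers. Symbols came from the RefSeq table of another possible build (CriGri-PICRH-1.0), with the version of an accession ignored. It matched 528 of 46718 targets, none of them a predicted transcript, so tests were made per target. No sequence or coordinate is printed.

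Estimated counts were rounded, filtered with filterByExpr, scaled by TMM and fitted with edgeR 4.0.16 (quasi-likelihood, all 19 libraries, 1 coefficient per group) in R 4.3.3, with Benjamini-Hochberg adjustment over 28555 targets and a threshold of 0.05. Log2 CPM used a prior count of 2, and log2 TPM a pseudocount of 0.1. Counts were called whole within 1e-06. Intervals of summed counts and floors of 3 counts cover counting error only, because PCR copies cannot be told from separate molecules without identifiers. Intervals of log2 fold changes come from the edgeR fit and include the spread between libraries. Alternatives used DESeq2 1.42.0, limma 3.58.1, exact permutation, other scaling, filter, samples and covariates. The test was checked on simulated data, in which it recovered the sizes of the changes and made no false call. It called only a minority of the changed targets, so a target that was not called may still differ. The simulated libraries were independent, and each change was equal in every negative feedback library. The split among the real negative feedback cultures was not simulated, so the check does not give the rate of false calls in these data. The rule for named genes took the members, called genes of the list, the 3 most similar named targets of each member and the construct. The matched list genes that were not called, and both matched markers, are named beside them and were chosen after their values were seen. A listed gene that is not reported here was left out of the list's counts. The members and lists were chosen with earlier results of these data known. No 2 files held identical counts, and no replicate pair was within sampling noise.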

Additional observations from a re-analysis of the deposited data

Results flagged for a closer look

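Over 37 sets of cultures of 1 condition, 12 genes and Lpin1 under negative feedback, 4 libraries lay far from the rest of their set by Dixon's test, which flags about 1 set in 20 by chance. Uncontrolled culture 4 was at 88.6 CPM for Scap, against 40.5 to 40.8 CPM in cultures 1 to 3, and at 73.2 CPM for Insig1, against 46.6 to 50.9 CPM. Paradoxical feedback culture 2 was at 99.8 CPM for Scap, the highest of its 7 cultures. Negative feedback culture 2 was at 73.5 CPM for Soat1, the lowest of its 7. None of the values of Srebf2, Mbtps2 or Acaca was picked out in this way. The test looks for 1 lone value. It therefore cannot pick out their split between negative feedback cultures 1 and 2 and cultures 3 to 7.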

How the results depend on the processing

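For negative feedback against uncontrolled growth, the log2 fold changes of Srebf2, Mbtps2 and Acaca kept their call with library size alone as scaling, without a filter and with DESeq2. Those of Srebf2 and Acaca lost it with limma-voom (1.01 and 1.61), and those of Srebf2, Mbtps2 and Acaca in the fit of the compared groups alone (1.12, 4.84 and 1.83), with the replicate number as a block (0.89, 4.62 and 1.67), with the short-target share as covariate (0.13, 1.16 and 0.25) and without negative feedback cultures 3 to 7 (-0.14, 0.67 and -0.015). By exact permutation, with p not adjusted over targets, Srebf2 had p = 0.0545 on log2 CPM (0.99) and 0.0576 on log2 TPM (1.24). Mbtps2 and Acaca had 0.0303 and 0.0394 on log2 CPM, and 0.0303 and 0.0424 on log2 TPM. The test on log2 TPM was chosen after seeing the data. The unadjusted edgeR p-values in the fit over all libraries were 0.00195, 0.00204 and 0.000745 for Srebf2, Mbtps2 and Acaca. Leaving out 1 library gave 1.05 to 1.27, 4.46 to 6.11 and 1.72 to 2.04.

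Under paradoxical feedback Srebf2 gained a call in the compared groups alone (0.67) and without cultures 3 to 7 (0.69). Exact permutation, with p not adjusted over targets, gave 0.00303 on log2 CPM (0.66) and 0.0152 on log2 TPM (0.69). The unadjusted edgeR p in the fit over all libraries was 0.0414. With the covariate Mbtps2 and Acaca turned to -0.42 and -0.48. Leaving out 1 library gave 0.61 to 0.74, 1.00 to 2.65 and 0.28 to 0.56 for Srebf2, Mbtps2 and Acaca.

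Between the feedback conditions Mbtps2 and Acaca gained a call with DESeq2 (-3.56 and -1.55), and Acaca with the covariate (-0.74). Exact permutation, with p not adjusted over targets, gave 0.0192 and 0.0216 on log2 CPM (-2.36 and -1.23). On log2 TPM (-2.64 and -1.45) it gave 0.0192 and 0.0245. The unadjusted edgeR p-values in the fit over all libraries were 0.00235 and 0.000786, so these permutations add no call at a like threshold. Without cultures 3 to 7 Srebf2, Mbtps2 and Acaca turned to 0.83, 0.74 and 0.40. Leaving out 1 library gave -0.61 to -0.37, -3.81 to -3.15 and -1.65 to -1.34. Against the parental library, Srebf2 turned to -0.29 with the replicate block, -0.080 with the covariate and -0.21 without cultures 3 to 7, and leaving out 1 library gave 0.19 to 0.26, 1.49 to 2.04 and 0.77 to 0.89 for Srebf2, Mbtps2 and Acaca.

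Of 13 list genes, the 6 calls under negative feedback became 4 with library size alone (Npc1 and Pcyt1a lost), 5 without a filter (Pcyt1a lost), 7 with DESeq2 (Mbtps1 gained), 2 with limma-voom and 0 in the compared groups alone, with the block, with the covariate and without cultures 3 to 7 (0 to 8 leaving out 1 library). The 1 call under paradoxical feedback became 0 with library size alone, no filter, limma-voom, the block or the covariate, and 2 in the compared groups alone or without cultures 3 to 7 (0 to 1 leaving out 1 library). The 0 calls between feedback conditions became 5 with DESeq2, 1 with the covariate and 2 without cultures 3 to 7 (0 to 4 leaving out 1 library). The cause of these changes was not tested.

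Deviations of same-numbered cultures from their group means correlated at -0.16 to 0.11 in 15 pairs. Of 18 libraries, 5 correlated best with their own number, and the count to be expected without pairing was not worked out. The deviations of negative feedback cultures also hold the split within that group, so these values do not settle whether equal numbers mark paired cultures. With the replicate block 4 and 3 of all targets were called against uncontrolled growth, in place of 2785 and 1834. Mbtps2 has no value in the compared groups alone for both paradoxical comparisons, since it did not pass the filter, and summing the targets of a gene was not run because each has 1. Depth limits Mbtps2, which held under 12 counts in 14 libraries.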
